A study of Mus musculus with 12 samples.

Results

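miR-22, miR-150 and miR-187 are miRNAs reported to repress *P2rx7*, the gene of the ATP-gated P2X7 receptor. Their assays were picked by name alone, as every TaqMan assay that carries exactly the number of one of these miRNAs, whatever the arm. This gave 5 of the 619 miRNA assay lines, namely hsa-miR-22, hsa-miR-22#, hsa-miR-150, mmu-miR-150# and mmu-miR-187, where # marks the passenger strand. A Ct below 28 in all 12 samples was found for 4 of the 5, which places them among the 335 miRNAs analyzed, and the exception was miR-150#.

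The samples were hippocampi of C57BL/6 mice, labelled as 8 weeks old, in 4 groups of 3 samples. Control wt and control P2rx7-/- mice received vehicle in the amygdala, and post-SE wt and post-SE P2rx7-/- mice received 0.3 μg kainic acid (KA) there to trigger status epilepticus. Mice of all groups were given the anticonvulsant lorazepam (6 mg/kg), and the ipsilateral hippocampus was taken at 8 h. The P2rx7-/- mice are constitutive knockouts that lack an exon of *P2rx7* in every cell type, and each sample pooled hippocampi from 2 mice. The array holds no *P2rx7* assay, so the genotype could not be checked here. In whole hippocampus, fewer cells of a type and less of a miRNA per cell cannot be told apart.

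The P2X7 receptor is a channel with low affinity for ATP, described on microglia and other glia, and its opening leads to the release of interleukin-1β. A miRNA lowers the output of its target mRNAs by pairing through its seed, the stretch at its 5′ end, mostly with sites in their 3′ untranslated region. miR-22 is expressed in many tissues, brain included. miR-150 is best known from mature lymphocytes and circulates in blood. miR-187 has been studied in monocytes as a brake on inflammatory cytokines. The comparisons ask whether loss of the receptor, seizures or both go along with a shift of miRNAs that act on the receptor itself.

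The sequences show that the assays of one hairpin read separate molecules. RefSeq (GRCm38.p6) gave mature mouse sequences for 3 of the 5 assays, the miR-22 assay, which reads the 3p arm, miR-22#, which reads the 5p arm, and miR-150#, which reads the 3p arm of miR-150. The seed (bases 2 to 8) is in capitals.
mmu-miR-22-3p: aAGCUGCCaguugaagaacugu
mmu-miR-22-5p: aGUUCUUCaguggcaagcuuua
mmu-miR-150-3p: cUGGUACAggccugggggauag

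The miR-22 arms lie at chr11:75463772-75463793 (3p) and chr11:75463734-75463755 (5p) on the plus strand, within the span of the long noncoding host gene *Mir22hg*. miR-150-3p lies at chr7:45121798-45121819, also on the plus strand. These 3 seeds differ from each other, and each was held by 1 mature name in the table. Both arms of miR-22 are cut from the same hairpin.

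Levels are given as the mean Ct of the 335 assays in a sample minus the Ct of the assay. This is a log2 scale on which 1 unit is about a factor of 2 and higher means more miRNA. The FC of a sample is 2 raised to the difference between its level and the mean level of the reference samples. The SD beside an average FC is the spread of the compared samples alone and leaves out the spread of the reference samples. An assay was called up-regulated when the average FC of the 3 samples exceeded 1.5 and down-regulated when it was under 0.6, the rule of the study's methods. Each assay was read once per sample. As a guide to reading error, the 16 wells of the control RNA snoRNA135 had a median SD within a sample of 0.281 cycles (range 0.197 to 3.63). Between 470 and 538 miRNA assays gave a Ct in a sample.

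Wt control replicate 1 stood apart from the other samples. Its Ct values ranked the 335 assays less like the others (Spearman 0.660 to 0.737 with each, against 0.872 to 0.989 among the other 11 samples). Over 2 units from the median of the others were 72 of its 335 assays, against 3 to 28 in the other samples. For miR-22, miR-22#, miR-150 and miR-187, the main values that rest on this sample are given with and without it. Shares of all assays called by the FC rule or without overlap include this sample. So do the values of the other receptor-linked miRNAs and of the blood, immune and neuronal lists.

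miR-22 varied little over the 12 samples. Its Ct was 15.6, 15.7 and 14.8 in wt control, 16.1, 15.8 and 16.0 in P2rx7-/- control, 15.7, 15.9 and 16.0 in wt post-SE and 15.5, 15.7 and 15.8 in P2rx7-/- post-SE samples. On the level scale these values were 3.44, 2.85 and 3.42 in wt control, 3.04, 3.13 and 3.14 in P2rx7-/- control, 3.55, 2.96 and 2.66 in wt post-SE and 3.03, 3.33 and 3.29 in P2rx7-/- post-SE samples. All 12 samples fell within 0.885 units, and every pair of groups overlapped. Its mean level was the 65th highest of the 335 assays, a rank that also reflects how well each assay amplifies. The SD within groups was 0.294, and 4.78% of the assays had a smaller one, where the median SD was 0.636. With wt control replicate 1 left out the SD was 0.291 (6.28% of 382 assays had a smaller one), above the 0.208 of miR-187. In order of mean level the groups were wt control (3.24 ± 0.336, SD, n = 3), P2rx7-/- post-SE (3.22 ± 0.165), P2rx7-/- control (3.11 ± 0.0578) and wt post-SE (3.05 ± 0.451), and no neighbours in this order were separated.

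The passenger strand miR-22# was scarcer than miR-22 by Ct and more widely spread. Its levels were −0.02, −0.90 and −1.26 in wt control, −0.60, −0.59 and 0.02 in P2rx7-/- control, −0.17, −0.98 and −0.42 in wt post-SE and −1.15, −0.60 and −0.61 in P2rx7-/- post-SE samples. The highest and the lowest sample were both control samples, of different genotypes, and all groups overlapped. It ranked 184th of 335 by mean level, with a range of 1.28 units over the 12 samples. The SD within groups was 0.449, and 27.5% of the assays had a smaller one. Without wt control replicate 1 the SD was 0.360, with 18.3% of 382 assays below it. The group means ran from −0.39 ± 0.355 in P2rx7-/- control to −0.79 ± 0.317 in P2rx7-/- post-SE samples (SD, n = 3).

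miR-150 was among the assays with the lowest Ct in most samples, with 1 exception that stood far apart. Its Ct was 25.81, 12.18 and 11.78 in wt control, 15.32, 12.84 and 12.46 in P2rx7-/- control, 11.50, 12.04 and 12.07 in wt post-SE and 11.01, 12.57 and 12.23 in P2rx7-/- post-SE samples. The corresponding levels were −6.76, 6.38 and 6.47 in wt control, 3.84, 6.09 and 6.68 in P2rx7-/- control, 7.77, 6.86 and 6.54 in wt post-SE and 7.48, 6.51 and 6.84 in P2rx7-/- post-SE samples. Wt control replicate 1 was far below all others and P2rx7-/- control replicate 1 was the next lowest, whereas the remaining 10 samples lay between 6.09 and 7.77. The assay ranked 325th of 335 in wt control replicate 1 and from 3rd to 53rd elsewhere. Its SD within groups was 3.90, and 99.1% of the assays had a smaller one. Without wt control replicate 1 the SD was 0.901, with 75.9% of 382 assays below it. In order of mean level the groups were wt post-SE (7.06 ± 0.639, SD, n = 3), P2rx7-/- post-SE (6.95 ± 0.494), P2rx7-/- control (5.54 ± 1.498) and wt control (2.03 ± 7.61), and each overlapped its neighbour.

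The low value of miR-150 in wt control replicate 1 was 1 of several of its kind in that sample. Its difference from the median of the other samples was −13.3 units, the second-largest among the 335 assays. The largest was that of hsa-miR-26a (−15.4 units), and hsa-miR-99a (−11.7) and mmu-miR-376b (−10.1) followed. All 4 had a Ct between 25.7 and 26.9 in this sample. The difference of miR-187 was −1.63 units, the 85th largest, while miR-22 and miR-22# lay 0.31 and 0.58 units higher. The cause of these low values was not tested.

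miR-187 was spread narrowly apart from that sample. Its Ct was 18.5, 16.4 and 15.9 in wt control, 17.7, 17.1 and 17.3 in P2rx7-/- control, 16.7, 16.7 and 16.0 in wt post-SE and 16.5, 16.9 and 16.7 in P2rx7-/- post-SE samples. Its levels were 0.57, 2.14 and 2.33 in wt control, 1.48, 1.79 and 1.84 in P2rx7-/- control, 2.52, 2.22 and 2.61 in wt post-SE and 2.02, 2.20 and 2.42 in P2rx7-/- post-SE samples. The P2rx7-/- control samples lay below all samples of the other groups except wt control replicate 1. The assay ranked 101st of 335, and its SD within groups was 0.512. Without wt control replicate 1 the SD was 0.208, and 1.05% of 382 assays had a smaller one. In order of mean level the groups were wt post-SE (2.45 ± 0.205, SD, n = 3), P2rx7-/- post-SE (2.22 ± 0.200), P2rx7-/- control (1.70 ± 0.193) and wt control (1.68 ± 0.963). Of the neighbours in this order only the P2rx7-/- post-SE and P2rx7-/- control samples did not overlap.

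**Figure D1:**
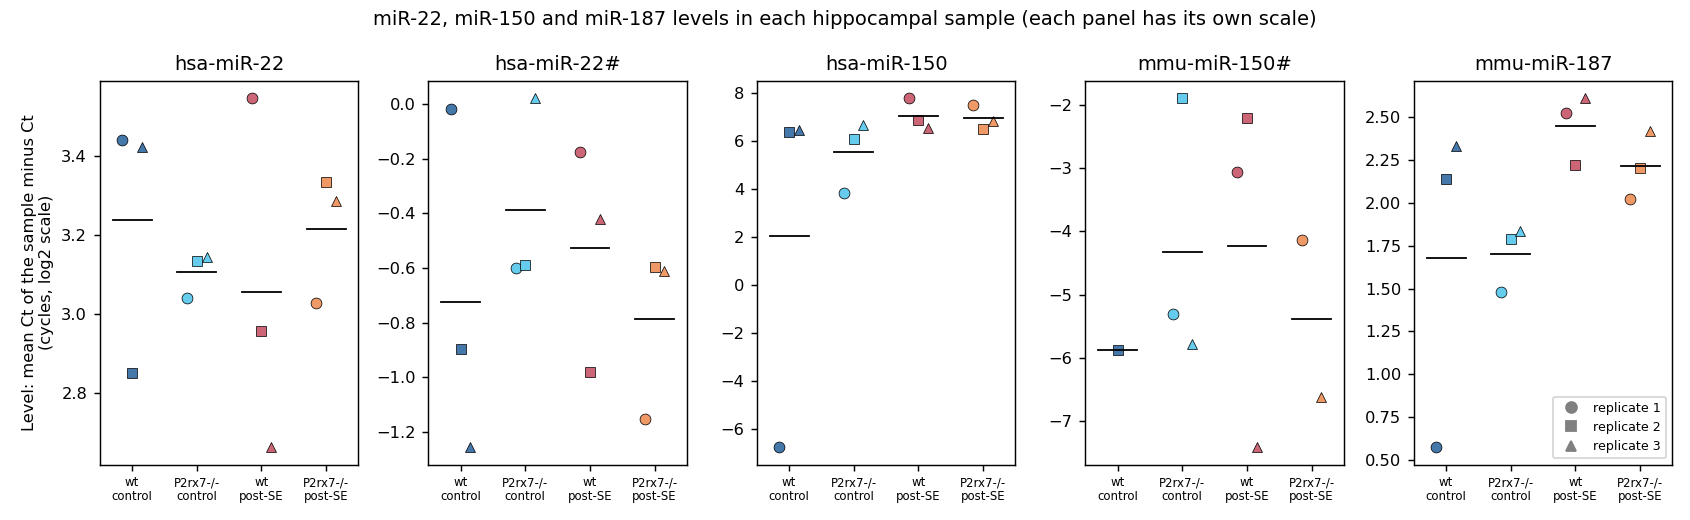
Level of each assay (mean Ct of the sample minus Ct, log2 scale, vertical axis) in the 12 samples by group (horizontal axis), with 1 point per sample and a line at the group mean. miR-150 in wt control replicate 1 lies at −6.76 against 3.84 to 7.77 in the other samples, miR-22 stays between 2.66 and 3.55, and miR-150# has points for 9 samples.

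miR-150#, the passenger strand of miR-150, gave a Ct in 9 of 12 samples. A Ct was listed for 1 of 3 wt control samples (24.4), all 3 P2rx7-/- control samples (24.5, 20.8 and 24.9), all 3 wt post-SE samples (22.3, 21.1 and 26.03) and 2 of 3 P2rx7-/- post-SE samples (22.6 and 25.7). The 3 wt post-SE samples alone covered nearly the whole range of its Ct values. The empty wells were wt control replicates 1 and 3 and P2rx7-/- post-SE replicate 2, and an empty well gives no level in a table that lists no Ct above 28. In a fit of the 518 assays with a Ct in at least 1 sample of every group, in which empty wells were dropped, P2rx7-/- control exceeded wt control by 1.55 on the log2 scale (limma, 95% interval −4.09 to 7.19, adjusted p = 0.886), with a single wt control sample behind it.

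With all 12 samples, neither miR-22 nor miR-187 differed between the genotypes under control conditions by more than the spread between samples. For miR-187 this rested on wt control replicate 1. Relative to wt control, the P2rx7-/- control samples had miR-22 FCs of 0.871, 0.931 and 0.937, an average of 0.913 ± 0.0361 (SD, n = 3). The wt control samples themselves lay at miR-22 FCs of 1.15, 0.764 and 1.14, a wider spread. The log2 difference was −0.13 (limma, 95% interval −0.81 to 0.55, adjusted p = 0.901). For miR-22# the FC averaged 1.29 ± 0.336 and the log2 difference was 0.33 (adjusted p = 0.837). For miR-187 it averaged 1.02 ± 0.131, with a log2 difference of 0.02 (−0.94 to 0.98, adjusted p = 0.991). Without wt control replicate 1 the miR-187 difference turned to −0.52 (−1.20 to 0.16, limma adjusted p = 0.982), and the 3 P2rx7-/- control samples lay below both remaining wt control samples. In the same fit, that of miR-150 turned from 3.504 to −0.88, and the FC of miR-22# reached 1.66, above the threshold.

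By the FC rule, 1 of the 4 assays, miR-150, was called up-regulated in P2rx7-/- control samples, where 36.7% of all 335 assays were called in either direction and 21.2% were up-regulated. Its FCs were 3.501, 16.7 and 25.0, an average of 15.1 ± 10.9 (SD, n = 3). The wt control samples themselves lay at 0.00226, 20.4 and 21.6, averaging 14.0, because their reference is a mean of log2 levels that replicate 1 pulls down. The groups overlapped (two-sided exact permutation test, p = 0.8; groups of 3 cannot give less than 0.1). The average FC was 0.725 without wt control replicate 1, and miR-150 was no longer called. Groups did not overlap for 14% of all assays and for none of these 4.

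After status epilepticus in wt mice, miR-150 and miR-187 were called up-regulated, 2 of the 4 assays, against 35.8% of the 335 called and 23.3% up-regulated. The miR-150 FCs were 53.5, 28.4 and 22.8, an average of 34.9 ± 16.4 (SD, n = 3). Every post-SE sample exceeded every wt control sample (exact permutation test, two-sided, p = 0.1), as was the case in either direction for 11% of the assays, although the lowest post-SE level (6.54) was close to the highest wt control level (6.47). The average FC was 1.62 without wt control replicate 1. The log2 difference fell from 5.03 (limma, 95% interval −1.26 to 11.3, adjusted p = 0.664) to 0.61 (−1.06 to 2.27).

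miR-187 had FCs of 1.79, 1.45 and 1.90 in wt post-SE samples, an average of 1.72 ± 0.235 (SD, n = 3). The lowest of these samples lay between the wt control replicates 2 and 3, so the groups overlapped (two-sided exact permutation test, p = 0.2). The FC averaged 1.15 without wt control replicate 1, and the call was lost. The log2 difference was 0.77 (limma, −0.19 to 1.73, adjusted p = 0.664), and 0.19 without that sample. miR-22 averaged 0.910 ± 0.294, with a log2 difference of −0.18 (−0.86 to 0.50, adjusted p = 0.934), and miR-22# averaged 1.18 ± 0.318.

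After status epilepticus in P2rx7-/- mice, compared with P2rx7-/- control samples, 1 of the 4 assays was called, against 25.1% of all assays (17.9% up-regulated). This was miR-150, with FCs of 3.86, 1.97 and 2.48, an average of 2.77 ± 0.978 (SD, n = 3), and the groups overlapped (two-sided exact permutation test, p = 0.2). The call rested partly on P2rx7-/- control replicate 1, without which the average was 1.53. miR-187 averaged 1.44 ± 0.200, under the threshold, with FCs of 1.25, 1.41 and 1.65. All 3 post-SE samples exceeded all 3 controls for miR-187 (two-sided exact permutation test, p = 0.1), and groups did not overlap for 6.57% of all assays. Its log2 difference was 0.51 (limma, −0.44 to 1.47, adjusted p = 0.998). Wt control replicate 1 also enters the spread that the groups share in limma. Without that sample the miR-187 difference was 0.47 (−0.14 to 1.08, limma adjusted p = 0.839). miR-22 averaged 1.08 ± 0.120 and miR-22# 0.770 ± 0.157, with overlapping groups for both.

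Between genotypes after status epilepticus, none of the 4 assays was called, against 21.5% of all assays, and none was without overlap, against 5.67%. The average FC of P2rx7-/- post-SE relative to wt post-SE samples was 1.12 ± 0.125 for miR-22, 0.847 ± 0.173 for miR-22#, 0.963 ± 0.340 for miR-150 and 0.854 ± 0.119 for miR-187 (SD, n = 3). The log2 difference of miR-22 was 0.16 (limma, −0.52 to 0.84), that of miR-22# −0.26 (−1.13 to 0.61) and that of miR-187 −0.24 (−1.19 to 0.72). For miR-150 it was −0.11 with an interval from −6.40 to 6.17, a width set by wt control replicate 1, and the interval narrowed to −1.61 to 1.38 without that sample. The interval of miR-187 narrowed to −0.85 to 0.37. Against wt control, the group that the comparisons above also use, P2rx7-/- post-SE samples gave 1 call (33.7% of all assays, 20.6% up-regulated), miR-150 at 31.4 ± 11.1. The groups did not overlap for this assay, as for 10.1% of all, and the FC was 1.46 without wt control replicate 1.

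**Figure D2:**
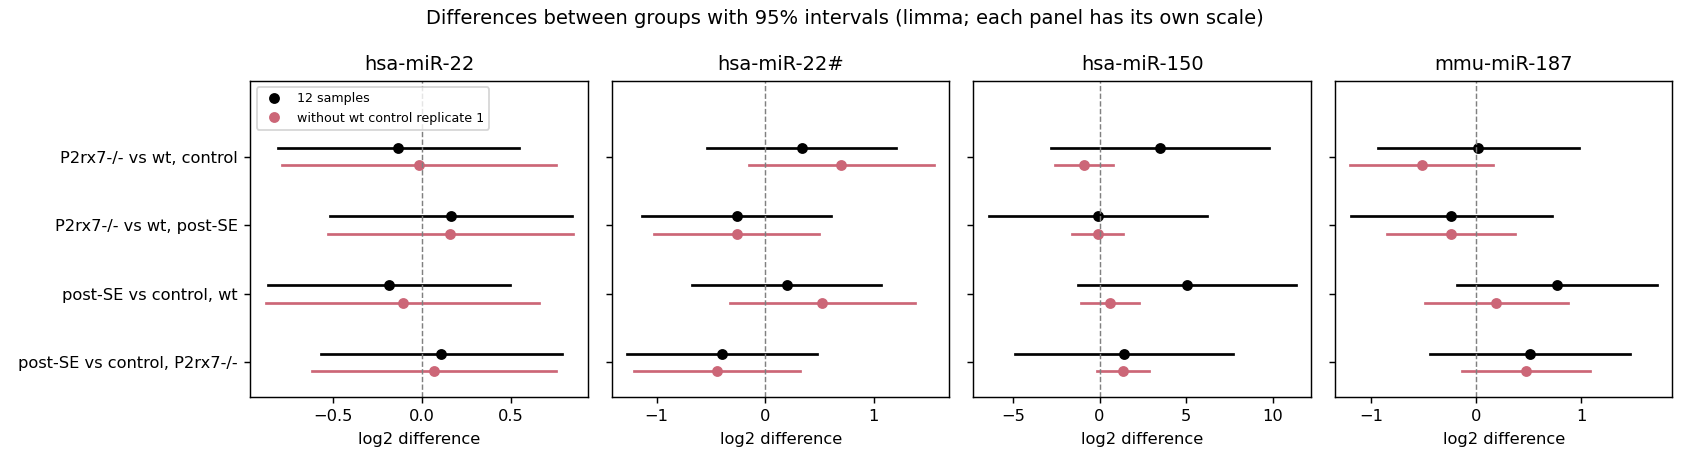
Log2 differences between groups (horizontal axis, limma) with 95% intervals for the 4 assays with a Ct in all samples, with all 12 samples (black) and without wt control replicate 1 (red). Every interval includes 0, and leaving out that sample moves miR-150 from 3.504 to −0.88 in the comparison of control mice.

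None of the 335 assays with a Ct in all samples passed the adjusted threshold in any of these comparisons. With limma and Benjamini-Hochberg adjustment, 0 of 335 assays (0%) had an adjusted p below 0.05 in each of the 5 comparisons, in the interaction and in the averaged effects, and between 4 and 20 assays had an unadjusted p below 0.05. The interaction of genotype and status epilepticus was 0.29 for miR-22, −0.60 for miR-22#, −3.62 for miR-150 and −0.26 for miR-187, with adjusted p-values from 0.851 to 0.917.

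Averaged over both genotypes, the post-SE samples had more miR-187 and miR-150 than the controls, 2 of the 4 assays, in an exact test that rearranges samples only within a genotype. For miR-187 the post-SE level was 0.64 higher (two-sided exact permutation test over 400 rearrangements, p = 0.01, where 0.005 is the smallest possible). For miR-150 it was 3.22 higher (exact p = 0.02). Without wt control replicate 1 the differences were 0.33 (exact permutation p = 0.04) and 0.99 (exact p = 0.045) over 200 rearrangements, where 5.5% of 382 assays had a p below 0.05. Of all 335 assays, 5.97% had such a p below 0.05 and 3.88% with the post-SE samples higher. With Benjamini-Hochberg adjustment over the 335 assays no assay passed, and the adjusted exact p was 0.479 for miR-187 and 0.515 for miR-150. Without wt control replicate 1 the adjusted exact p was 0.819 for both. In limma the miR-187 effect had the 16th lowest p of 335 (0.64, 95% interval −0.03 to 1.32, unadjusted p = 0.0607, adjusted p = 0.829). The limma effect of miR-150 was 3.22 (−1.23 to 7.66, unadjusted p = 0.138, adjusted p = 0.829). Without that sample the unadjusted limma p was 0.139 for miR-187 and 0.0772 for miR-150 (adjusted p = 0.962 for both).

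The miR-187 effect kept its sign with any single sample left out, and whether its p passed 0.05 depended on the sample and on the scaling. When single samples were dropped, the post-SE difference lay between 0.331 and 0.805, with exact permutation p-values from 0.005 to 0.06, and 10 of 12 were below 0.05 (the exceptions were wt post-SE replicates 1 and 3, both at 0.06). It was 0.59 after quantile normalization (exact p = 0.055) and 0.64 when scaled to all assays detected in the sample (exact p = 0.075). For miR-150 the p-values ran from 0.005 to 0.255 with a sample left out, and 7 of 12 were below 0.05. The exceptions were the 3 wt post-SE samples (0.21 to 0.255) and P2rx7-/- post-SE replicates 1 (0.075) and 3 (0.06). miR-22 and miR-22# differed by −0.04 (exact permutation p = 0.865) and −0.10 (exact p = 0.7) after status epilepticus.

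The genotype effect averaged over control and post-SE samples was 0.01 for miR-22 (limma, 95% interval −0.47 to 0.50), 0.04 for miR-22#, 1.70 for miR-150 and −0.11 for miR-187, with exact permutation p-values from 0.78 to 0.91. That of miR-187 was −0.38 without wt control replicate 1 (exact permutation p = 0.02), where 3.66% of 382 assays had a p below 0.05, and the adjusted exact p was 0.955. These were 8 tests, over 4 assays and both effects.

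**Figure D3:**
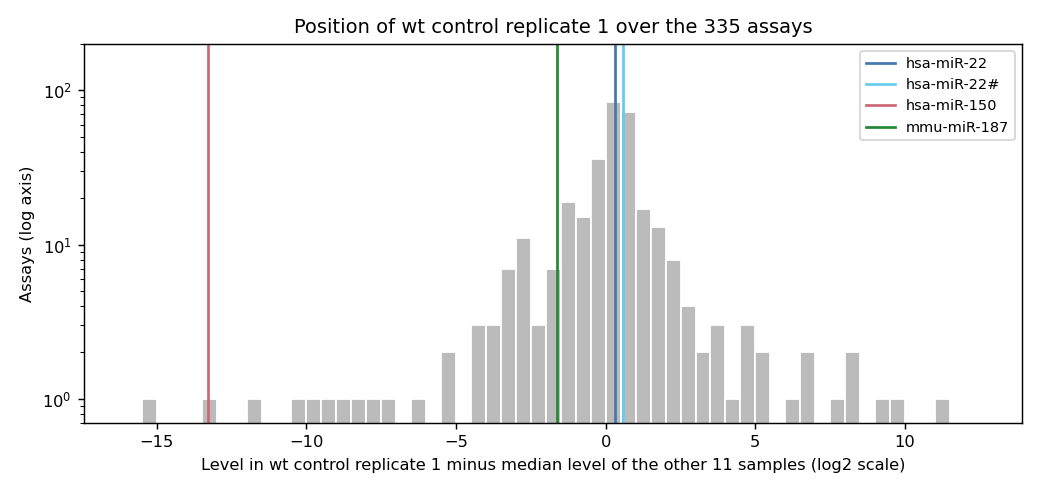
Difference of wt control replicate 1 from the median of the other 11 samples (horizontal axis, log2 scale) for the 335 assays, with their number on a log vertical axis and lines at the 4 assays. miR-150 lies at −13.3, near the lower end of the distribution, and miR-187 at −1.63, while miR-22 and miR-22# lie at 0.31 and 0.58 within its main peak.

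Differences between assays of the same sample do not depend on the scaling. The Ct of miR-22# exceeded that of miR-22 by a median of 3.74 cycles, with a range from 3.08 to 4.68 over the 12 samples. The mean of 3.76 cycles equals a factor of 13.5 if both assays amplify equally, which was not measured. In P2rx7-/- post-SE samples the difference was 4.18, 3.93 and 3.90 cycles, above the P2rx7-/- control samples at 3.64, 3.72 and 3.12 (two-sided exact permutation test, p = 0.1). In wt mice it was 3.46, 3.75 and 4.68 in control and 3.72, 3.94 and 3.08 in post-SE samples, which overlapped.

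The Ct of miR-187 minus that of miR-22 was 2.87, 0.71 and 1.09 cycles in wt control, 1.56, 1.35 and 1.31 in P2rx7-/- control, 1.02, 0.74 and 0.05 in wt post-SE and 1.00, 1.13 and 0.86 in P2rx7-/- post-SE samples. The P2rx7-/- groups were separated and the wt groups overlapped. Averaged over genotypes the difference was 0.68 cycles smaller post-SE (−0.68, two-sided exact permutation test over 400 rearrangements, p = 0.03), and without wt control replicate 1 it was −0.35 (exact p = 0.09). With wt post-SE replicate 1, 2 or 3 left out it was −0.78, −0.71 and −0.54 (exact permutation p = 0.05, 0.115 and 0.175). For miR-150 minus miR-22, wt control replicate 1 lay at 10.2 cycles and the other samples between −4.46 and −0.80. The post-SE average for that pair was −3.26 (exact permutation p = 0.015), and p ranged up to 0.25 with a wt post-SE sample left out. It was −1.01 without wt control replicate 1 (exact p = 0.02).

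**Figure D4:**
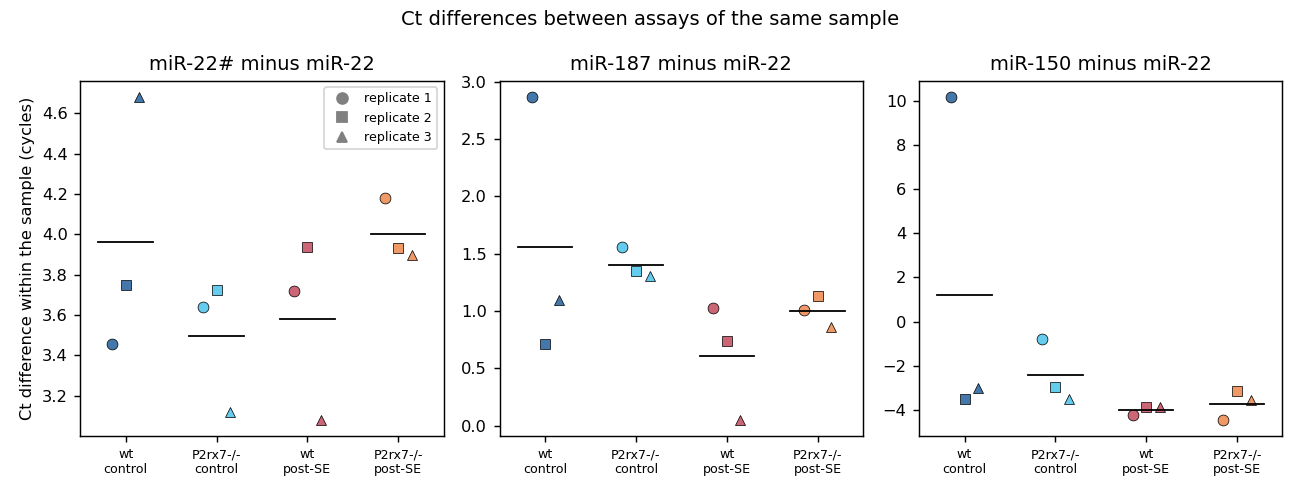
Ct difference between assays of the same sample (vertical axis, cycles) for miR-22# minus miR-22, miR-187 minus miR-22 and miR-150 minus miR-22, by group, with 1 point per sample and a line at the group mean. The difference between the miR-22 arms stays between 3.08 and 4.68 cycles, and miR-150 minus miR-22 is above 0 in wt control replicate 1 alone, at 10.2 cycles.

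The assays with the most similar pattern over the 12 samples were chosen by Spearman correlation with the other 334 assays. All points share the sample's scaling and its group, so these values are descriptions. For miR-22 they were mmu-miR-345 (0.888), mmu-miR-20a# (0.776) and mmu-miR-326 (0.776). For miR-22# they were hsa-miR-154# (0.909), mmu-miR-485-3p (0.895) and mmu-miR-702 (0.853). For miR-150 they were mmu-miR-712 (0.867), hsa-miR-27a# (0.832) and hsa-miR-433 (0.811). For miR-187 they were hsa-miR-93# (0.902), mmu-miR-106a (0.846) and mmu-miR-134 (0.706). The first name was the same without wt control replicate 1 for miR-22, miR-150 and miR-187, and for miR-22# it was hsa-miR-149 (0.900). Among the 4 assays themselves, miR-150 and miR-187 correlated at 0.636 (0.545 over 11 samples) and the miR-22 arms at 0.301 (0.100).

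Other miRNAs linked to the receptor, miR-135a, miR-186 and miR-216b, were measured by 5 assays, of which 4 had a Ct in all samples. None had an adjusted p below 0.05 in the 5 comparisons (limma), and none had an unadjusted p below 0.05. By the FC rule 1 of the 4 was called after status epilepticus in wt mice (35.8% of all assays) and 1 between the genotypes post-SE (21.5% of all assays), in both cases hsa-miR-216b (0.593 ± 0.273 and 1.60 ± 0.987, SD, n = 3). Its Ct was between 23.2 and 26.3, near the end of the listed range. Relative to wt control, hsa-miR-135a averaged 0.648 ± 0.421 in P2rx7-/- control and 0.736 ± 0.210 in wt post-SE samples, under 1 but above the lower threshold, and hsa-miR-186 averaged 0.885 ± 0.251 and 1.44 ± 0.796. The median log2 difference of the 4 assays was −0.41 in P2rx7-/- control samples, where that of all 335 was −0.02, and −0.35 in wt post-SE samples, where it was −0.09.

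Since miR-150 is known from lymphocytes, miRNAs of blood and immune cells (6 of 9 assays with a Ct in all samples) and of neurons (3 of 8) were read beside it. The 3 neuronal assays were hsa-miR-128a, mmu-miR-137 and mmu-miR-138#, so their sum leaves out miR-9, miR-124a and the main strand of miR-138. Of those left out, hsa-miR-9 gave a Ct in only 4 samples, at 10.06 to 12.27, near the lowest Ct listed for any assay. Its empty wells therefore cannot be read as little miRNA, and their cause was not tested. The summed level of the blood and immune list, on the log2 scale, was 5.61 to 6.78 in wt control, 5.69 to 6.74 in P2rx7-/- control, 5.01 to 5.83 in wt post-SE and 5.48 to 6.82 in P2rx7-/- post-SE samples. Its median was lowest in wt post-SE samples (5.32). Wt control replicate 1 lay at 5.86, between the other wt control samples. Of the 6 summed assays, an hsa-miR-223 assay had the highest group means (4.63 to 5.55), and the members moved in different directions. In wt post-SE against wt control samples, hsa-miR-142-3p and mmu-miR-155 were higher (log2 differences 0.53 and 0.68). Both hsa-miR-223 assays (−0.72 and −0.41), mmu-miR-451 (−1.64) and hsa-miR-486 were lower. In wt control replicate 1, mmu-miR-451 had its highest level of all samples (3.43), and that hsa-miR-223 assay (4.58) lay below its wt control mean (5.35). The neuronal list was 4.62 to 5.67 in wt control, 5.36 to 5.84 in P2rx7-/- control, 5.40 to 6.23 in wt post-SE and 5.47 to 6.32 in P2rx7-/- post-SE samples, and wt control replicate 1 was the lowest. No assay of either list with a Ct in all samples had an adjusted p below 0.05 in the 5 comparisons (limma), nor an unadjusted one. The median log2 difference of the blood and immune list against wt control was 0.18 in the P2rx7-/- controls (all assays −0.02), −0.57 in wt post-SE samples (all assays −0.09) and 0.20 in their P2rx7-/- counterparts (all assays −0.09). It was −0.01 in P2rx7-/- post-SE against P2rx7-/- control samples (all assays 0.02) and 0.64 in P2rx7-/- against wt post-SE samples (all assays −0.01). By the FC rule 4 of the 6 assays were up-regulated and none down-regulated in P2rx7-/- against wt post-SE samples, where 21.5% of all assays were called in either direction. The 4 were both hsa-miR-223 assays (log2 differences 0.92 and 0.61), mmu-miR-155 (1.16) and mmu-miR-451 (0.67), named after their values were seen. Both hsa-miR-223 assays carry the same miRNA name, so the 4 assays are not 4 separate miRNAs. The share of all assays that were up-regulated was not counted for this comparison. In wt post-SE against wt control samples 2 were up and 2 down (35.8% of all assays called). In the other comparisons none was down. There, 1 was up in P2rx7-/- control against wt control (21.2% of all assays up-regulated). In P2rx7-/- post-SE samples 1 was up against P2rx7-/- control (17.9% of all assays) and 2 against wt control (20.6% of all assays). The neuronal list had medians of 0.36, 0.05 and 0.45 against wt control in the same order, 0.11 in P2rx7-/- post-SE against P2rx7-/- control and 0.40 in P2rx7-/- against wt post-SE samples. Against wt control it had 1 up-regulated assay in each comparison. Of all assays 21.2%, 23.3% and 20.6% were up-regulated there, in the same order. The list had none in the other 2 comparisons, and no down-regulated one. The up-regulated assay was mmu-miR-137, whose level in wt control replicate 1 (1.14) was its lowest of all samples. Its call was not recomputed without that sample. The neuronal mmu-miR-124a, a mark of brain tissue, had a Ct of 13.7 to 15.6 in 11 samples, and the red cell miRNA hsa-miR-144 gave a Ct in 8. The part of blood cells in the values of miR-150 was not tested.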

How the data were processed

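Hippocampal RNA (1 μg per sample) was reverse transcribed, pre-amplified and measured by TaqMan OpenArray. The authors deposited Ct values without normalization (653 assay lines, Ct 10.0 to 28, other unit: cycles) and a table of fold changes (ratio to wt control replicate 1), in which empty Ct values had entered as 0. The latter was used only as an alternative for the average FC. The software of the Ct calls is not given in the sources used here. Groups came from the labels, and the columns without a sample were 0. The labels give 8 weeks of age, and the methods a range that starts there.

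From the Ct values, the mean Ct over the 335 assays with a Ct below 28 in all 12 samples was subtracted (−ΔCt, log2 scale), and FCs were 2 to the power −ΔΔCt. All 335 assays were fitted with limma 3.58.1 in R 4.3.3 (1 coefficient per group, Benjamini-Hochberg, threshold 0.05). Exact permutation tests and FCs used Python 3.11.15, numpy 2.4.6 and pandas 2.3.3, and figures matplotlib 3.10.9. The scripts were tested on simulated data. Alternatives were other normalizers, Ct cut-offs, averaging rules, array weights, a replicate block and leaving out samples. Exact tests under other scalings and over all assays were added after seeing the data. The members, lists and tests were chosen with earlier results of these data known. Named were all assays of the 3 miRNAs, the other receptor-linked miRNAs, marker lists by range, the 3 most similar assays for each, and snoRNA135. The number of samples and the single reading of each assay limit the precision. Sequences came from RefSeq (GRCm38.p6).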

Additional observations from a re-analysis of the deposited data

Results flagged for a closer look

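The genotype effect on miR-22# pointed opposite ways in control and post-SE mice. In control mice, the 3 P2rx7-/- samples lay 0.12, 0.13 and 0.74 above the wt average (mean 0.33, log2 scale), and after status epilepticus the 3 P2rx7-/- samples lay at −0.63, −0.07 and −0.09 (mean −0.26). The effects differed by 0.597. The test of the difference, the interaction in limma, gave −0.60 (95% interval −1.83 to 0.64, adjusted p = 0.851), and wt control replicate 3 and P2rx7-/- control replicate 3 were the lowest and highest samples. The size depended on single samples. Without wt control replicate 3 the effect in control mice was 0.07 and the interaction −0.33. Without wt control replicate 1 they were 0.70 and −0.97 (limma, 95% interval of the interaction −2.11 to 0.18, adjusted p = 0.983).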

How the results depend on the processing

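All values in this section are log2 differences unless another quantity is named. No member assay reached an adjusted p below 0.05 (limma) in any comparison under any setting tried. Counts of assays called by the FC rule did move. In P2rx7-/- control against wt control, 1 call became 2 with the snoRNA135 normalizer, with quantile normalization and with a Ct asked in at least 1 sample of every group. In wt post-SE against wt control, 2 calls became 1 when all 3 samples had to pass the threshold, and 1 to 2 remained in number with a sample left out (1 without wt control replicate 1). In P2rx7-/- post-SE against P2rx7-/- control, 1 call became 2 with the median normalizer and with the mean of all detected assays, and 1 to 2 with a sample left out. In P2rx7-/- post-SE against wt control, 1 call became 2 with the median and snoRNA135 normalizers and with the looser detection filter, and 0 to 2 with a sample left out (0 without wt control replicate 1).

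The directions that turned belonged to differences that did not pass the threshold, and the cause was not tested. Where the stratified exact test gave the same averaged effect, its value was the same. That of miR-187 post-SE fell short with quantile normalization (0.59, exact p = 0.055) and with the mean of all detected assays (0.64, exact p = 0.075). With array weights, miR-150 turned to −0.67 in P2rx7-/- against wt control, 0.059 in P2rx7-/- against wt post-SE, 0.73 in the interaction and −0.31 in the averaged genotype effect. The same weights turned miR-187 to −0.4996 in the comparison of controls and 0.30 in the interaction. For miR-22# they gave 0.22 in P2rx7-/- post-SE against wt control and 0.0272 in the averaged post-SE effect, and for miR-22 0.0600 in P2rx7-/- post-SE against wt control. With the median normalizer, miR-150 was 0.0333 between genotypes post-SE, miR-22# 0.0666 and miR-22 0.11 in P2rx7-/- post-SE against wt control, and miR-187 0.000621 in the averaged genotype effect. With snoRNA135, miR-150 was 0.13 and miR-187 0.00167 between genotypes post-SE, and miR-22# 0.37 in P2rx7-/- post-SE against wt control. With the same normalizer miR-22 was 0.32 for P2rx7-/- control against wt control, 0.0175 for wt post-SE against wt control, 0.42 for P2rx7-/- post-SE against wt control and 0.0543 in the averaged post-SE effect, and miR-187 was 0.24 in the averaged genotype effect. With quantile normalization, miR-150 was 0.24 between genotypes post-SE, miR-22# 0.0742 in P2rx7-/- post-SE against wt control and miR-22 −0.0631 in the averaged genotype effect. With the mean of all detected assays, the averaged genotype effect was −0.0139 for miR-22# and −0.0355 for miR-22, and miR-187 was −0.0813 in the comparison of controls.

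With each sample left out, the following turned. For miR-150 the range was −0.88 to 5.72 in the comparison of controls, −0.38 to 0.22 between genotypes post-SE, −0.49 to 2.81 for genotype averaged and −5.83 to 0.76 for the interaction. For miR-187 it was −0.52 to 0.35 in the comparison of controls, −0.0478 to 0.86 in P2rx7-/- post-SE against wt control, −0.38 to 0.0564 for genotype averaged and −0.58 to 0.28 for the interaction. For miR-22 it was −0.43 to 0.0130 in wt post-SE against wt control, −0.22 to 0.0765 in P2rx7-/- post-SE against wt control, −0.0356 to 0.38 between genotypes post-SE, −0.0839 to 0.11 for genotype averaged and −0.16 to 0.0613 for post-SE averaged. For miR-22# it was −0.0679 to 0.53 in wt post-SE against wt control, −0.33 to 0.26 in P2rx7-/- post-SE against wt control, −0.0957 to 0.22 for genotype averaged and −0.23 to 0.0423 for post-SE averaged. Ct differences within a sample ranged, in cycles, for miR-150 minus miR-22 from −6.01 to 0.86 (controls), −0.0041 to 0.64 (post-SE genotypes) and −2.87 to 0.57 (genotype averaged). For miR-187 minus miR-22 they ranged from −0.57 to 0.50 (controls), −0.98 to 0.0975 (P2rx7-/- post-SE against wt control) and −0.0889 to 0.45 (genotype averaged). For miR-22# minus miR-22 they ranged from −0.21 to 0.40 (P2rx7-/- post-SE against wt control), −0.15 to 0.16 (genotype averaged) and −0.0630 to 0.24 (post-SE averaged).

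The labels do not say what a replicate number marks, so samples were not paired by it. Deviations of samples with the same number correlated at −0.23 to 0.28 (median 0.04), with 4 of 18 pairs above 0.1. Those with different numbers correlated at −0.23 to 0.26 (median −0.02), with 5 of 36 pairs above 0.1. The highest same-number values (0.28, 0.27 and 0.25) were among replicates 3 of the groups other than wt control. Whether these share a batch was not tested. With the replicate number as a block, miR-187 differed by 0.77 in wt post-SE against wt control (adjusted p = 0.661, limma) and miR-150 by 3.504 in the comparison of controls (adjusted p = 0.721), and the block left 0 member assays with an adjusted p below 0.05.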
